A study of Mus musculus with 7 samples.

Results

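Csf1, Il34, Kitl, Hgf, Ptn and Mdk encode secreted or membrane-bound factors by which fibroblasts support macrophages, blood progenitors and epithelium. These 6 genes were taken by symbol from the 49382 genes of an RNA-seq table of mouse embryonic fibroblasts (MEFs), in which each symbol stood on 1 row. The cells were wild-type primary MEFs from E13.5 to E14.4 embryos, freed of the head and of red tissue, used at passage 3 to 7 and cultured in DMEM. There were 7 libraries, 1 from control cells and 1 each from cells without glucose for 10 h (glucose depletion), without glutamine for 10 h (glutamine depletion), at 0.1% oxygen for 10 h (hypoxia), with 1 μM thapsigargin for 10 h (ER stress), with 10 μM NaAsO2 (sodium arsenite) for 3 h (oxidative stress) and with 100 mM NaCl for 3 h (osmotic stress). Thapsigargin blocks the calcium pump of the endoplasmic reticulum. The labels do not say how many embryos or cultures stood behind a library, nor whether control cells received fresh medium. Values are TPM, a share of the library corrected for transcript length, so levels can be compared between genes. Each condition was sequenced once, so the differences below have no replicate check and carry no test.

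CSF1 is the lineage growth factor of macrophages, and IL34 is another ligand of its receptor, CSF1R. Kit ligand, the product of Kitl, acts on blood progenitors, mast cells, germ cells and melanocytes through KIT, from the cell membrane or after shedding. HGF is secreted as an inactive precursor, is cut by serine proteases, and acts on epithelial cells through MET. Pleiotrophin (Ptn) and midkine (Mdk) form a small family of heparin-binding growth factors that bind PTPRZ1, syndecans, LRP1 and, as reported, ALK.

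The start regions of Csf1, Hgf and Ptn are shown because Csf1 is the macrophage factor around which the study was built, and because Hgf and Ptn had their lowest levels in the same library. The sequences are RefSeq's on GRCm38.p6, 5′ to 3′ along the gene's strand, and end before the first annotated exon.
Csf1, chr3:107760470-107760719, minus strand: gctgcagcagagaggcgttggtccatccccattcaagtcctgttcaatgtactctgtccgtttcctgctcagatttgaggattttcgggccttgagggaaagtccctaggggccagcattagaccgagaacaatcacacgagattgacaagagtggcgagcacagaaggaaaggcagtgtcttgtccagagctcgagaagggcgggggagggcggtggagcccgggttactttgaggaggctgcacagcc
Hgf, chr5:16553245-16553494, plus strand: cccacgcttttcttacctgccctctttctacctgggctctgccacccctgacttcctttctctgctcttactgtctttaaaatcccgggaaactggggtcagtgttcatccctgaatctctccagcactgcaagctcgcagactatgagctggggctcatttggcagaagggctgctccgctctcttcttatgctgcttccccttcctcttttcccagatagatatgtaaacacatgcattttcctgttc
Ptn, chr6:36810221-36810429, minus strand: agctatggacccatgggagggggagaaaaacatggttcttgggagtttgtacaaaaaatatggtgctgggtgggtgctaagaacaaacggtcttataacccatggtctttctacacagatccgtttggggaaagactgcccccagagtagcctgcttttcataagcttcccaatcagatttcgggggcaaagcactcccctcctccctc
The 250 bases before each RefSeq start of Csf1, Kitl, Hgf and Ptn, 5 windows in all with 2 of Hgf, were searched on both strands for ACGTG (the core of the hypoxia response element), GGAATG (the core of the TEAD site) and TGANTCA (the AP-1 site). None of the 5 windows held any of these letters, so nothing stands in capitals. Of 32851 such windows over all genes, 16.6% held ACGTG, 12.6% GGAATG and 6.75% TGANTCA. The search covers these windows only and says nothing about enhancers. Il34 and Mdk were not matched.

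The factors covered a wide range of levels in the control library. Csf1 was at 377 TPM, above 96.8% of the 12909 genes that passed a filter (2 TPM or more on average), and Ptn was at 216 TPM, above 94.4%. Mdk stood at 54.8 TPM, Kitl at 12.3 TPM and Hgf at 8.90 TPM. Il34, at 1.82 TPM, was above 4.52% of these genes. All 6 factors passed this filter, Il34 with a mean of 2.76 TPM that rested on its values in glucose depletion and hypoxia.
The 7 libraries held from 19819 to 21154 genes above 0 TPM, and mitochondrially encoded genes took between 5.09% and 9.25% of a library. A gene known to respond to each treatment was past 2-fold in its own library in all 6 cases, namely Txnip at a log2 change of -2.07 in glucose depletion, Chac1 at 1.69 in glutamine depletion, Bnip3 at 4.85 in hypoxia, Hspa5 at 3.44 in ER stress, Hmox1 at 4.50 in oxidative stress and Akr1b3 at 2.66 in osmotic stress. These 6 genes were chosen with earlier results of these data known, so they are no independent check of the treatments. Not all were particular to their own library, since Txnip was at -3.12 in osmotic stress, Chac1 at 3.05 in ER stress and Hmox1 at 2.75 in ER stress. All 8 fibroblast markers passed the filter, with a summed level from 6160 TPM in ER stress to 12781 TPM in hypoxia. Macrophage markers summed to between 6.92 and 16.8 TPM, and Cd68 alone of 8 passed. Mast cell and blood progenitor markers summed to between 22.1 and 33.6 TPM, and 2 of 6 passed. These were Gata2 and Cd34, at 16.1 and 10.9 TPM in the control, while Cpa3 and Gata1 were at 0 in every library. Endothelial markers summed to between 4.65 and 9.80 TPM (1 of 6 passed). Muscle markers summed to between 13.9 and 36.6 TPM (1 of 5). Epithelial markers summed to between 41.6 and 160 TPM (2 of 6), mostly from Krt19, and neural markers to between 40.8 and 142 TPM (2 of 6, Tubb3 and Nes).

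**Figure D1:**
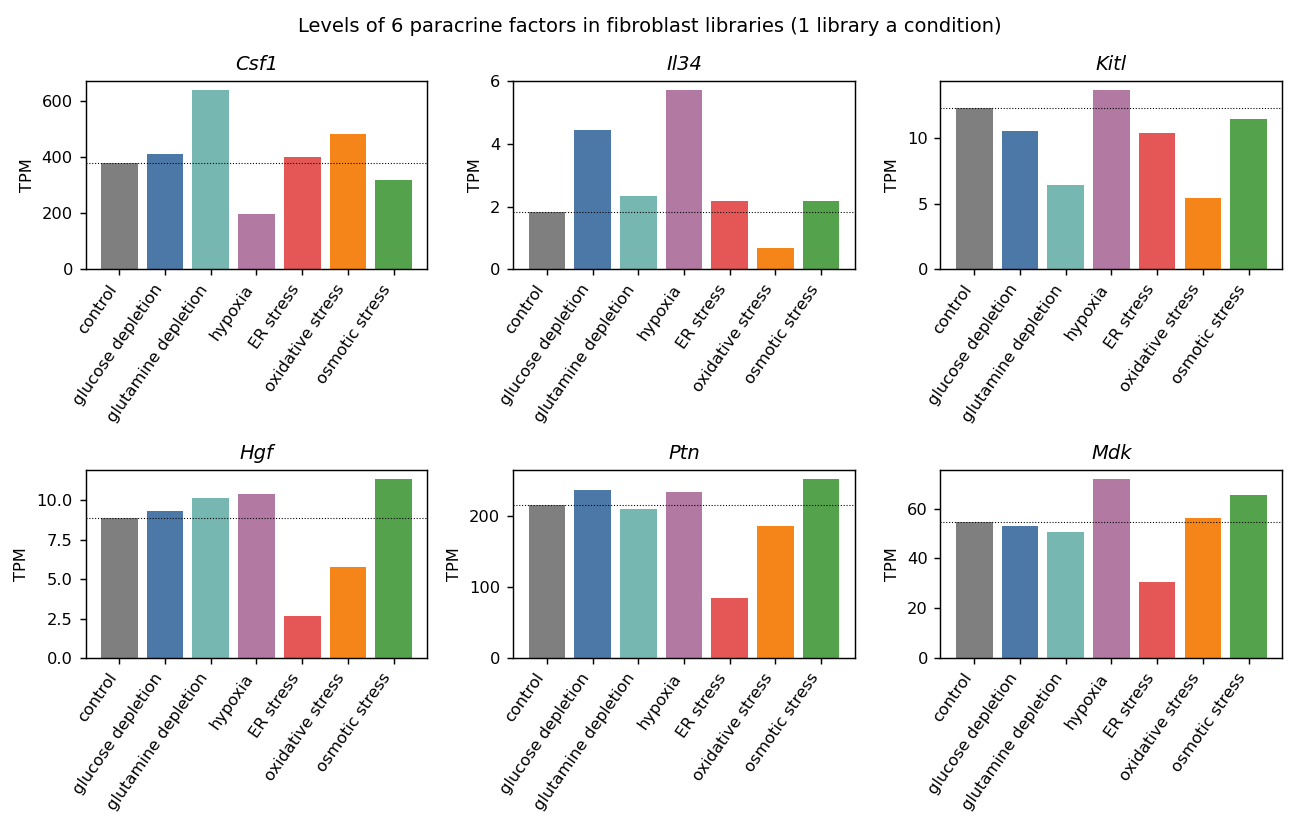
Each panel plots the TPM of 1 factor (y axis, from 0) in the 7 libraries (x axis), with 1 library a bar and a dotted line at the control level. Csf1 was highest in glutamine depletion (638 TPM) and lowest in hypoxia (197 TPM), and Hgf, Ptn and Mdk were lowest in ER stress.

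Changes were taken as the difference in log2(TPM + 1) from the control library, which understates the change of genes with low levels, and those of more than 2-fold were counted. Of the 36 values of a factor in a condition, 4 were past 2-fold. In ER stress Hgf and Ptn were lower by more than 2-fold, 2 of the 6 factors, where 11.0% of all 12909 genes were, and none was higher by that much, against 8.60% of genes. In hypoxia Il34 was higher (3.57% of genes) and no factor lower (2.64%). In oxidative stress Kitl was lower (4.85%) and none higher (3.94%). No factor was past 2-fold in glucose depletion, where 1.83% of genes were higher and 2.41% lower, in glutamine depletion, with 3.21% in each direction, or in osmotic stress, with 3.08% higher and 8.76% lower. With 6 genes, counts of 0, 1 or 2 carry little weight against these shares, and single values follow. All changes share the control library, so its own deviations enter each of them.

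**Figure D2:**
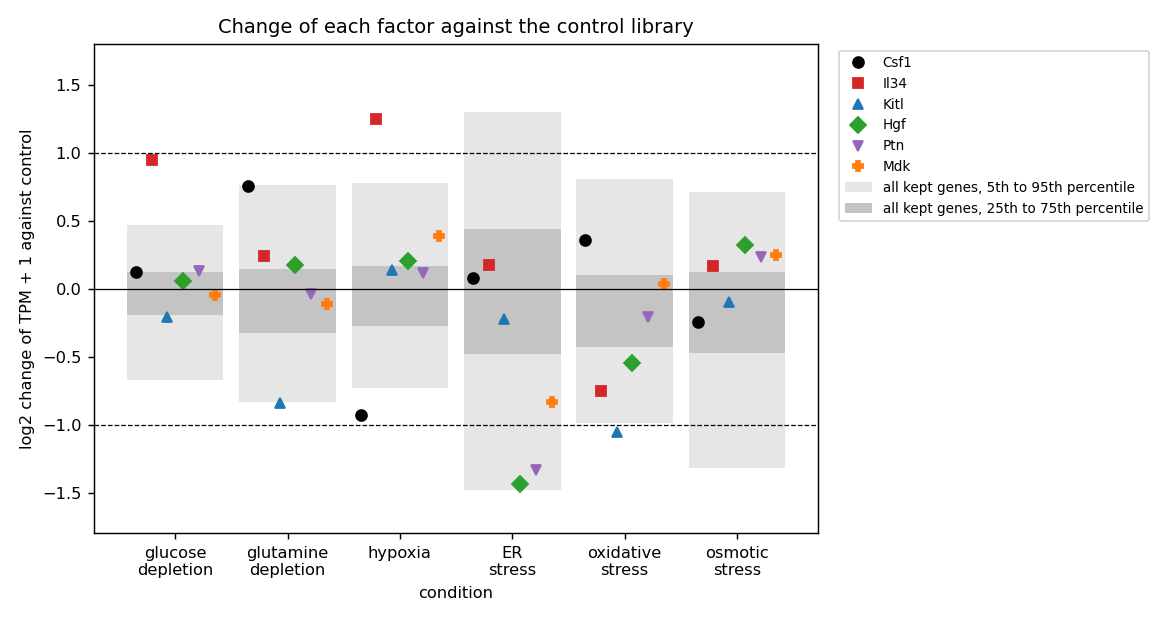
Points plot the log2 change of each factor against the control library (y axis) in the 6 conditions (x axis), and the light and dark bars span the 5th to 95th and the 25th to 75th percentile of the 12909 genes. Dashed lines mark 2-fold. Il34 in hypoxia (1.25), Kitl in oxidative stress (-1.06), and Hgf (-1.44) and Ptn (-1.33) in ER stress lie past them.

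Csf1 lies on chromosome 3 from 107741048 to 107760469 (GRCm38), on the minus strand, with 7 annotated transcripts. Its level was 377 TPM in control cells, 411 in glucose depletion, 638 in glutamine depletion, 197 in hypoxia, 399 in ER stress, 483 in oxidative stress and 318 in osmotic stress. Glutamine depletion and hypoxia stood at opposite ends, while control, ER stress and glucose depletion lay close together. The log2 change was 0.76 in glutamine depletion, a rise reached by 5.07% of all genes, and -0.93 in hypoxia, a decrease reached by 3.04%. Neither was past 2-fold. The 10 h libraries can be compared without the control. Csf1 was 1.69 log2 units higher in glutamine depletion than in hypoxia, 1.06 higher in glucose depletion than in hypoxia and 1.01 higher in ER stress than in hypoxia. Of all genes, 10.2%, 6.96% and 22.4% differed by more than 2-fold between these pairs of libraries, in either direction. At 3 h, Csf1 was 0.60 log2 units higher in oxidative than in osmotic stress.

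Il34 lies on chromosome 8 from 110741829 to 110805924 on the minus strand. Its level was 1.82 TPM in control cells, 4.43 in glucose depletion, 2.33 in glutamine depletion, 5.71 in hypoxia, 2.18 in ER stress, 0.674 in oxidative stress and 2.16 in osmotic stress. Hypoxia and glucose depletion stood above the rest and oxidative stress below. In hypoxia the TPM was 3.14 times the control (log2 change 1.25), a rise reached by 2.84% of all genes, and in glucose depletion 2.43 times (0.94), a rise reached by 1.93%. The oxidative stress value corresponds to a log2 change of -0.75. In hypoxia Krt19 was at 156 TPM against 41.6 in the control, which alone raised the epithelial sum to 160 TPM from 47.6. Krt18, the other epithelial marker that passed, was at 3.57 TPM against 5.56. The rest were near 0 in both libraries. Epcam was at 0 TPM in hypoxia against 0.0753 in the control, and Cdh1 at 0.112 against 0.0934. Krt8 was at 0.193 against 0.172 and Cldn4 at 0.0959 against 0.0853. The part of epithelial markers in the Il34 level was not tested. At such Il34 levels a few reads can move the value, and their number is unknown. Exons of the antisense genes Gm15894 and Gm15895 overlap those of Il34 by up to 22 and 75 bases, but these genes reached at most 0.207 and 0.543 TPM in any library.
The ligands of CSF1R thus stood in opposite order in hypoxia, where Csf1 was lowest and Il34 highest of all 7 libraries. The level of Csf1 was 207 times that of Il34 in control cells, 34.5 times in hypoxia and 716 times in oxidative stress. These ratios rest on Il34 levels of 1.82, 5.71 and 0.674 TPM, at which a few reads can move them. Il34 made up between 0.139% and 2.82% of their summed TPM, so that this sum, from 203 TPM in hypoxia to 641 TPM in glutamine depletion, followed Csf1. Csf1r itself was between 0.744 and 2.25 TPM in the 7 libraries and did not pass the filter.

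The study reported that YAP1, a coactivator that works with TEAD factors and responds to cell density, controls Csf1 in fibroblasts. Its evidence included Yap1 knockdown, an active form of YAP1 and YAP1 binding at sites far upstream of Csf1. Here 13 genes of this pathway were read beside Csf1. All passed the filter. In glutamine depletion 1 of them was higher by more than 2-fold, Ctgf at 1.49, against 3.21% of all genes. In oxidative stress 2 were lower, Ajuba at -1.82 and Amotl2 at -1.77, against 4.85% of all genes. None was past 2-fold in the other 4 conditions. The shares of all genes in either direction there were 4.24% in glucose depletion, 6.21% in hypoxia, 19.6% in ER stress and 11.8% in osmotic stress. The list medians were 0.21 in glutamine depletion, -0.15 in hypoxia, -0.27 in ER stress, -0.20 in oxidative stress, 0.04 in glucose depletion and -0.07 in osmotic stress, and the medians of all genes were -0.09, -0.05, 0.00, -0.16, -0.02 and -0.12. Cyr61, Ctgf and Ankrd1, target genes of YAP1, were picked here after their values were seen. In hypoxia they had log2 changes of -0.42, -0.55 and -0.99, beside -0.93 for Csf1. In glutamine depletion theirs were 0.66, 1.49 and 0.55, beside 0.76. Other target genes of the list lay nearer to 0 in these conditions, namely Amotl2 at -0.14, Ajuba at -0.01 and Lats2 at -0.15 in hypoxia, and Ajuba at -0.07, Lats2 at -0.03 and Axl at -0.25 in glutamine depletion, though Axl was at -0.55 in hypoxia and Amotl2 at 0.53 in glutamine depletion. In ER stress Cyr61, Ctgf and Ankrd1 were at -0.59, -0.91 and -0.97, beside 0.08 for Csf1. Yap1 itself stayed between -0.46 and 0.33.

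**Figure D3:**
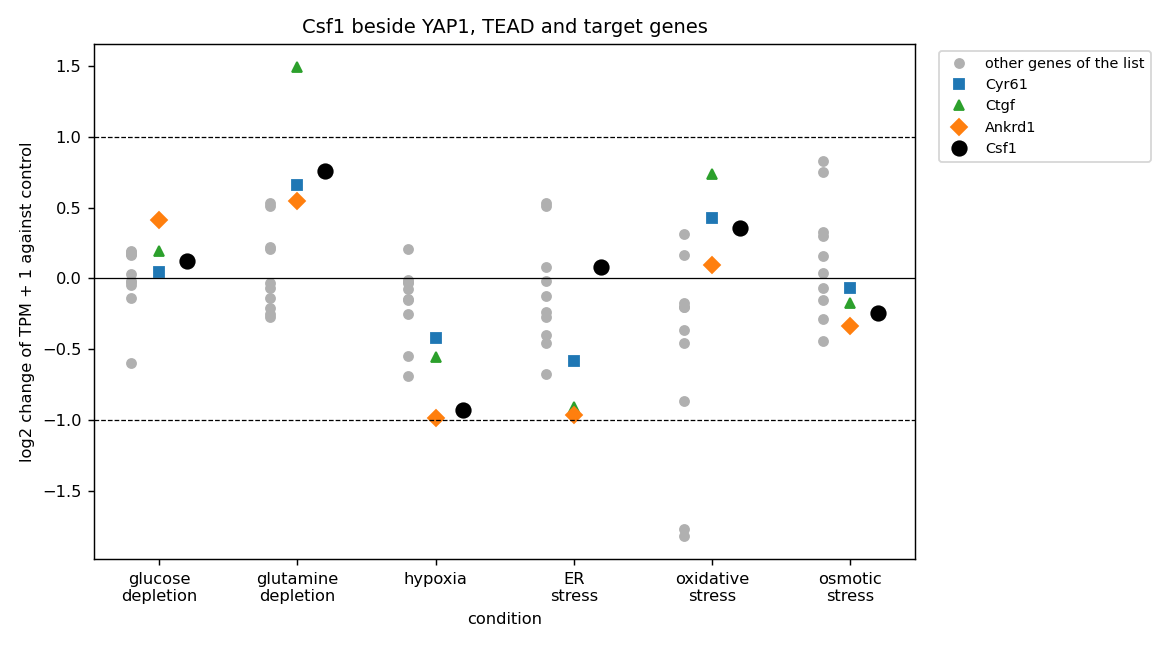
Points plot the log2 change against the control library (y axis) of Csf1 (black), of 3 target genes of YAP1 and of the other 10 genes of the list (grey) in the 6 conditions (x axis), with dashed lines at 2-fold. The 3 were picked after their values were seen. In hypoxia Csf1 (-0.93) lies beside Ankrd1 (-0.99). Of the grey target genes there, Amotl2 (-0.14), Ajuba (-0.01) and Lats2 (-0.15) lie nearer to 0, and Axl is at -0.55. In ER stress Csf1 (0.08) lies above Cyr61, Ctgf and Ankrd1, and all values share the control library.

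Kitl lies on chromosome 10 from 100015630 to 100100416 on the plus strand. Its level was 12.3 TPM in control cells, 10.5 in glucose depletion, 6.41 in glutamine depletion, 13.6 in hypoxia, 10.4 in ER stress, 5.40 in oxidative stress and 11.4 in osmotic stress. Oxidative stress and glutamine depletion stood apart below the other 5 libraries. The log2 changes in these were -1.06, a decrease reached by 4.14% of all genes, and -0.84, reached by 4.86%. The oxidative stress value was within 2-fold after the log2 changes were centered on the median of all genes (-0.90), so its place past the threshold depends on that shift. Against osmotic stress, the other 3 h treatment, Kitl in oxidative stress had a log2 difference of -0.96, and 11.8% of all genes differed by more than 2-fold between these libraries. The conditions with the lowest Kitl were those with the highest Csf1. These libraries also had the highest shares of mitochondrially encoded genes, 9.25% in oxidative stress and 7.58% in glutamine depletion against 6.37% in the control, and were those in which Nes was past 2-fold (1.10 and 1.39). With mitochondrially encoded genes removed, the log2 change of Kitl was -1.02 in oxidative stress and -0.83 in glutamine depletion. Kit, its receptor, was listed between 0 and 0.341 TPM.
Over the 6 conditions, the gene whose log2 changes lay nearest to those of Kitl, among the 8819 genes that averaged 10 TPM or more, was Kcnk2, with a root mean square difference of 0.10. Trappc12 and Mrs2 followed at 0.17 each. For Il34 the nearest were Mplkip at 0.40, Ccdc58 at 0.43 and Rngtt at 0.43, so none of the 8819 genes lay as near to it. Il34 averaged 2.76 TPM, below the 10 TPM asked of these genes. The part of its low level in these distances was not tested.

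Hgf lies on chromosome 5 from 16553495 to 16620152 on the plus strand. Its level was 8.90 TPM in control cells, 9.32 in glucose depletion, 10.2 in glutamine depletion, 10.4 in hypoxia, 2.66 in ER stress, 5.78 in oxidative stress and 11.4 in osmotic stress. ER stress was lowest at 29.8% of the control level, a log2 change of -1.44 that 5.33% of all genes reached, and oxidative stress was next with -0.55. The remaining 5 libraries lay between 8.90 and 11.4 TPM. Against the other 10 h libraries, Hgf in ER stress was lower by 1.5 log2 units than in glucose depletion, by 1.61 than in glutamine depletion and by 1.64 than in hypoxia. Of all genes, 18.7%, 19.7% and 22.4% differed by more than 2-fold between these pairs in either direction. Exons of Gm43489, on the same strand, overlap those of Hgf by up to 484 bases. That gene was not among the genes with listed values, so its level is unknown.
Ptn lies on chromosome 6 from 36714929 to 36810220 on the minus strand. Its level was 216 TPM in control cells, 236 in glucose depletion, 210 in glutamine depletion, 234 in hypoxia, 85.0 in ER stress, 186 in oxidative stress and 253 in osmotic stress. ER stress alone stood apart, at 39.4% of the control level (log2 change -1.33, reached by 6.46% of all genes). Compared with glucose depletion, glutamine depletion and hypoxia, its log2 difference in ER stress was -1.47, -1.29 and -1.45.
Mdk lies on chromosome 2 from 91929805 to 91932297 on the minus strand. Its level was 54.8 TPM in control cells, 53.1 in glucose depletion, 50.6 in glutamine depletion, 72.0 in hypoxia, 30.4 in ER stress, 56.1 in oxidative stress and 65.3 in osmotic stress. The ER stress library was lowest again, at 55.4% of the control level, but its log2 change of -0.83 was within 2-fold and was reached by 14.5% of all genes. Hypoxia was highest, with 0.39. Between hypoxia and ER stress Mdk differed by 1.22 log2 units.

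ER stress was thus the library with the lowest Hgf, Ptn and Mdk, of which Hgf and Ptn were past 2-fold and Mdk (-0.83) was not. Csf1 (0.08), Il34 (0.17) and Kitl (-0.22) were also within 2-fold of the control there. The share of all genes with their lowest level in ER stress was not counted. Of the 8 fibroblast markers, 2 were also lower by more than 2-fold in ER stress, Col3a1 at -2.07 and Pdgfrb at -1.15, against 11.0% of all genes. The median over the list was -0.86 against 0.00 for all genes. In a bulk library, fewer cells of a type and less RNA per cell cannot be told apart, and the part of this shift in the levels of Hgf, Ptn and Mdk was not tested. Neural markers summed to 142 TPM in ER stress against 48.3 in the control, through Tubb3 (2.24), while Nes, the other neural marker that passed, was at -0.63, and their part was not tested either. The level of Ptn was 3.94 times that of Mdk in control cells and between 2.80 (ER stress) and 4.45 times (glucose depletion) elsewhere. Among the genes nearest to Hgf over the 6 conditions was Ptn itself, with a root mean square difference of 0.18, followed by Adam23 (0.18) and Wbscr17 (0.20). Wbscr17 lay nearest to Ptn, at 0.05, and Pros1 and B4gat1 followed at 0.11 each.

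Of 17 receptors and co-receptors of the 6 factors, 12 passed the filter. In ER stress the list median was -1.0 against 0.00 for all genes. Of all genes, 11.0% were lower by more than 2-fold there and 8.60% higher. Of the 12 receptor genes, 6 were lower by more than 2-fold and none was higher. They were the heparan sulfate proteoglycans Sdc4 (144 to 22.8 TPM, log2 change -2.61), Sdc1 (-1.74) and Sdc3 (-1.35), the endocytic receptor Lrp1 (-1.35), Nrp1 (-1.34) and the integrin subunit Itgav (-1.23). In the other conditions Itgb3 in glutamine depletion, at 41.1 TPM (1.45), was the only receptor gene past 2-fold, against 3.21% of all genes higher there. In these conditions between 4.24% (glucose depletion) and 11.8% (osmotic stress) of all genes were past 2-fold in either direction. The list medians ran from 0.01 in osmotic stress to 0.29 in glutamine depletion. Met, the HGF receptor, was at 6.97 TPM in control cells, 12.0 in glutamine depletion and 3.64 in ER stress, with a log2 change of -0.78 in the last. Ptprz1, which binds pleiotrophin, midkine and IL34, was between 7.54 and 11.5 TPM. Alk was listed at 0 in 5 libraries and Ltk in 6. The cells therefore carried transcripts of Met, Ptprz1 and syndecans, and hardly any of Kit, Alk and Ltk. Csf1r was low, at 1.43 TPM in the control, where Il34 was at 1.82 TPM.

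A further group of genes acts on these factors outside the cell. Of 15 such proteases and inhibitors, 11 passed. In ER stress the list median was -0.58 against 0.00 for all genes. Past 2-fold, 3 were lower there, against 11.0% of all genes, and none was higher, against 8.60%. These were Plau, which encodes urokinase, a plasminogen activator, at -3.63 (64.3 to 4.29 TPM), Plat, the tissue-type activator, at -2.28, and Timp3, an inhibitor of metalloproteinases and of ADAM17, at -2.11. In glutamine depletion 3 were higher, against 3.21% of all genes, namely Plaur, the urokinase receptor, at 1.40, Plau at 1.29 and Timp3 at 1.13. Plaur was also higher in oxidative stress (1.13) and lower in hypoxia (-1.12), and in osmotic stress Plat was higher (1.13). The shares of all genes past 2-fold in these directions were 3.94%, 2.64% and 3.08%. None was past 2-fold in glucose depletion, against 4.24% of all genes in either direction. Adam17, which sheds membrane-bound CSF1 and kit ligand, stayed between -0.45 and 0.44, and Adam10 between -0.78 and 0.02. Of the enzymes that cut the HGF precursor, St14 (matriptase) passed the filter, at 2.67 TPM in control cells and 6.21 in hypoxia (0.98), and Hgfac and Hpn did not. St14 was between 1.42 and 2.67 TPM outside hypoxia and passed only through its hypoxia level. Of the inhibitors of these enzymes Spint2 passed, between 4.67 and 10.4 TPM, and Spint1 did not.

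**Figure D4:**
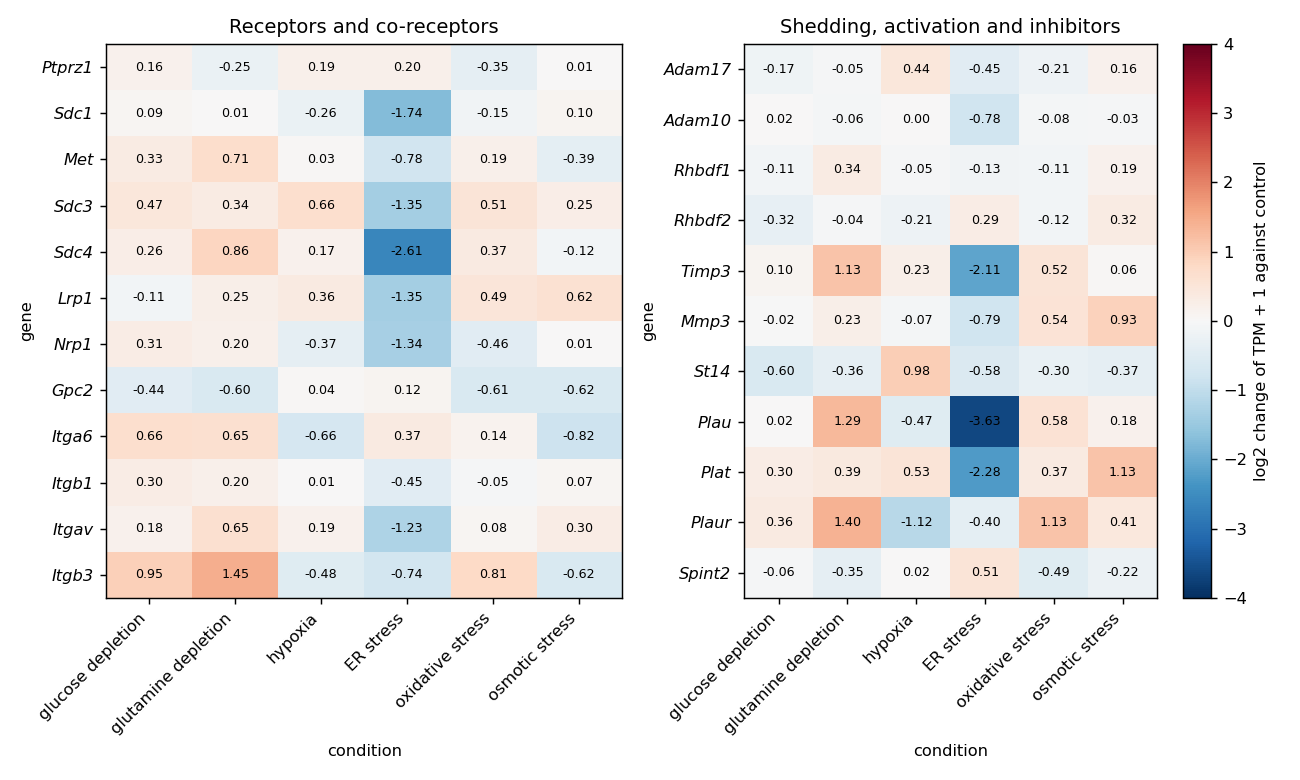
Colors and numbers give the log2 change against the control library of the 12 receptor genes (left) and the 11 protease and inhibitor genes (right) that passed the filter (rows), in the 6 conditions (columns). The ER stress column holds 6 receptor genes and 3 protease or inhibitor genes that were lower by more than 2-fold, down to -3.63 for Plau. Of all genes, 11.0% were lower by that much there.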

How the data were processed

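The authors aligned paired-end reads from a stranded mRNA kit with Kallisto (version 0.43.1 per the submitters' processing notes) to the cDNA transcripts of GRCm38 and deposited TPM, a length-corrected share of a library, summed over the transcripts of each gene. Gene-level TPM keeps no read counts, so depth is unknown and no counting interval can be given, and it shows no isoforms. Kallisto's default settings were stated for the alignment, and these do not use strand.

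Libraries were grouped by their treatment labels. From the deposited TPM, log2(TPM + 1) minus the control value was computed for all 49382 genes. A filter kept genes that averaged 2 TPM or more, and values past 2-fold on this scale were counted, a threshold of the study's methods. No group had a replicate, so no test was run. The 6 members and the gene lists were chosen with earlier results of these data known. These lists hold receptors, proteases with their inhibitors, other blood cell cytokines and other epithelial growth factors. They also hold YAP1 and TEAD genes, heparan sulfate enzymes, cell type markers and the 6 genes known to respond to the treatments. Genes were named by rule, namely the members, their receptors, up to 4 list genes past 2-fold a condition, 1 responsive gene a treatment and the 3 genes nearest to each member past 2-fold. Cyr61, Ctgf and Ankrd1 were picked from the YAP1 and TEAD list after their values were seen, and so were Yap1, Lats2, Axl, Adam17, Adam10, St14, Spint2, Hgfac, Hpn, Spint1, Flt3l, Il3, Epo and the cell type markers named. Locations came from GENCODE M21 on GRCm38. Promoter windows are those of RefSeq on GRCm38.p6 and covered 4 of the 6 members. A gene of the protease and inhibitor list is not reported here and was left out of its counts and medians. The steps were tested on simulated data, with changes planted only in genes at higher control levels than those of Il34, Kitl and Hgf. That test does not cover changes at their levels. Scripts ran under Python 3.11.15 with pandas 2.3.3 and numpy 2.4.6, and figures were drawn with matplotlib 3.10.9.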

Additional observations from a re-analysis of the deposited data

How the results depend on the processing

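With 1 library a condition, none of these settings measures error, and a factor counted under one of them is past a fold and no more. With a pseudocount of 0.1 TPM, 1 factor (Il34) was past 2-fold in glucose depletion and 2 (Il34, Kitl) in oxidative stress. With 5 TPM the counts were 0 in hypoxia, 1 in ER stress (Ptn) and 0 in oxidative stress. A minimum mean of 10 TPM removed Il34 and Hgf and left 0 in hypoxia and 1 in ER stress. Centering on the median of all genes left 0 in oxidative stress. At 1.5-fold, 1 factor was counted in glucose depletion (9.70% of all genes), 2 in glutamine depletion (Csf1, Kitl, 18.1%), 2 in hypoxia (Csf1, Il34, 15.3%), 2 in oxidative stress (Il34, Kitl, 23.5%), 3 in ER stress (Hgf, Ptn, Mdk, 40.2%) and 0 in osmotic stress (26.1%). At 3-fold the counts in hypoxia, oxidative stress and ER stress were 0, 0 and 0. Against the median of the 7 libraries in place of the control, 2 were past 2-fold in hypoxia (Csf1 at -1.01, Il34) and 0 in oxidative stress. The cause of these shifts was not tested beyond what each setting removes or adds. Without a filter, without mitochondrially encoded genes, or with protein-coding genes only (added after seeing the data), the counts were as given. The log2 change of Ptn in ER stress ranged from -1.35 to -1.29 over all settings, that of Hgf from -1.71 to -0.86, that of Il34 in hypoxia from 0.65 to 1.60 and that of Kitl in oxidative stress from -1.17 to -0.73. No change counted at any setting turned its sign. Among protein-coding genes, as all 6 factors are, the share past 2-fold in either direction was 1.04% in glucose depletion, 3.75% in glutamine depletion, 2.95% in hypoxia, 16.9% in ER stress, 5.25% in oxidative stress and 8.75% in osmotic stress, against 4.24%, 6.41%, 6.21%, 19.6%, 8.78% and 11.8% of all genes. No paired analysis was possible because no condition has a replicate.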

Other observations

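Other cytokines for blood cells were mostly at low levels, and 5 of 13 passed the filter. Cxcl12, a chemokine that retains progenitors in the bone marrow, was at 407 TPM in control cells, close to Csf1, and at 94.4 TPM in ER stress (log2 change -2.10). Angpt1 was lower there too, at 0.36 TPM against 3.41 in the control. In ER stress 11.0% of all genes were lower by more than 2-fold. Lif was higher by more than 2-fold in glutamine depletion (3.07) and oxidative stress (2.49), and Tslp was lower in oxidative stress (-1.21). The shares of all genes past 2-fold in these directions were 3.21%, 3.94% and 4.85%. None of the 5 was past 2-fold in glucose depletion, hypoxia or osmotic stress. The shares of all genes in either direction there were 4.24%, 6.21% and 11.8%. Flt3l stayed between 4.64 and 8.10 TPM. Il3 and Epo were listed at 0 in every library.

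Of 13 other epithelial growth factors, 11 passed. The mean of Areg rested on its levels in glutamine depletion (3.15 TPM), ER stress (5.33) and oxidative stress (4.93). It was at 0.532 TPM in the control, and its counts as higher in those libraries were partly set by the filter. In glutamine depletion 5 of the 11 were higher by more than 2-fold, against 3.21% of all genes. Among them were Ereg (2.67), Hbegf (2.50), Fgf2 (1.73) and Areg (1.44), while Hgf was at 0.17. In oxidative stress 4 were higher, Ereg, Hbegf, Areg and Fgf2, against 3.94% of all genes, and Fgf10 was lower (-1.01), against 4.85%. ER stress held 2 that were higher, Areg (2.05) and Ereg (1.37), against 8.60% of all genes. It held 3 that were lower, Igf1 (-1.34), Fgf7 (-1.18) and Rspo3 (-1.02), against 11.0% of all genes and beside Hgf at -1.44. In osmotic stress Ereg (2.32) and Rspo3 (1.39) were higher, against 3.08% of all genes. In hypoxia Ereg was lower (-1.35), against 2.64%, and in glucose depletion none was past 2-fold, against 4.24% in either direction. Of 15 genes that make or edit heparan sulfate, to which pleiotrophin, midkine and HGF bind, all passed. In ER stress Glce was higher (1.04), against 8.60% of all genes, and Sulf2 (-1.13) and Ext2 (-1.04) were lower, against 11.0%. Hpse was higher in hypoxia (1.42), against 3.57%, and Xylt1 in oxidative stress (1.04), against 3.94%. Hpse was at 5.29 TPM in hypoxia and at most 2.54 TPM in any other library. It passed the filter only through hypoxia, so its count there was partly set by the filter. No other heparan sulfate gene was past 2-fold. In glucose depletion, glutamine depletion and osmotic stress the shares of all genes in either direction were 4.24%, 6.41% and 11.8%.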
